A study of Mus musculus with 6 samples.

Results

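The genes described here encode 5 cadherins (Cdh1, Cdh2, Cdh3, Cdh5 and Cdh11) and 4 catenins (Ctnna1, Ctnnb1, Ctnnd1 and Jup). Members were taken as all probe sets whose only symbol in the array's annotation is one of these 9 genes, which gave 20 of 45037 probe sets and 9 of the 18193 genes with a probe set of their own. RNA came from A2.Snail ESCs, mouse embryonic stem cells that carry a Snail transgene switched on by doxycycline (dox), grown as embryoid bodies. All cultures received DKK1 (DKK), an inhibitor of Wnt signaling. In the DKK + dox cultures, dox was given from day 2 at 250 ng/mL, and the DKK cultures received none. Arrays were run at 6, 12 and 24 hours after dox, that is, at day 2.25, day 2.5 and day 3, with 1 array per condition and time, 6 in all. No array came from dox-treated cells without the transgene, so effects of dox and of Snail cannot be told apart.

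Classical cadherins hold neighboring cells together through calcium-dependent contacts between their extracellular domains. Inside the cell, p120-catenin (Ctnnd1) binds near the membrane and stabilizes the cadherin, while beta-catenin (Ctnnb1) or plakoglobin (Jup) binds the end of the tail and recruits alpha-catenin (Ctnna1), which connects the complex to actin. During an epithelial to mesenchymal transition (EMT), such as that of gastrulating mesoderm, cells typically lower E-cadherin (Cdh1) and raise N-cadherin (Cdh2), and Snail is known as a transcriptional repressor of Cdh1.

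Values are linear array intensities, with medians of 53.5 to 63.7 over the 6 arrays. Differences subtract DKK from DKK + dox after taking log2(intensity + 20.6), the added offset being the 25th percentile over all arrays, which makes changes of dim probe sets look smaller than they are. Values at or under 37.2, the 40th percentile, are called low signal. For each gene the probe set with the highest mean was used. Intensities are compared only within a probe set, apart from sums over marker lists. Among 14755 genes above the low-signal limit on at least 1 array, limma tested for a gap between the conditions proportional to time since dox. The fitted difference quoted for a gene is the height of this line at 24 hours, which can exceed every measured difference. Rose and fell mean higher and lower with dox than in DKK by this test, not a change over time. The test sets the slope of this line against how far a gene's differences at the 3 times stray from it, with 2 residual degrees of freedom. That scatter is pooled with a variance drawn from genes of like intensity, which has 5.5 prior degrees of freedom. The p-values therefore contain no spread between replicate cultures. The probe set of Snai1, the endogenous gene for Snail, read 29.6, 18.8 and 14.5 with dox and 32.9, 16.6 and 10.9 in DKK at the 3 times, all low signal, and it gave no check of the labels.

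Among the 9 members, Cdh1 fell while Cdh11 and Cdh5 rose (limma, adjusted p under 0.05), and the other 6 did not pass. Over all genes tested, 6.38% fell and 8.32% rose. The members did not shift together: the median of their fitted differences was 0.20, against 0.01 over all genes tested. Cdh3, Jup and Cdh2 missed the threshold narrowly, with adjusted p = 0.0503, 0.0562 and 0.0633 from limma. Each of these 3 passed under some of the alternative settings and not under others. Cdh1, Cdh3, Cdh2 and Cdh5 are among genes that the study chose to show from these arrays on a basis it does not state, so their directions are not independent evidence.

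**Figure D1:**
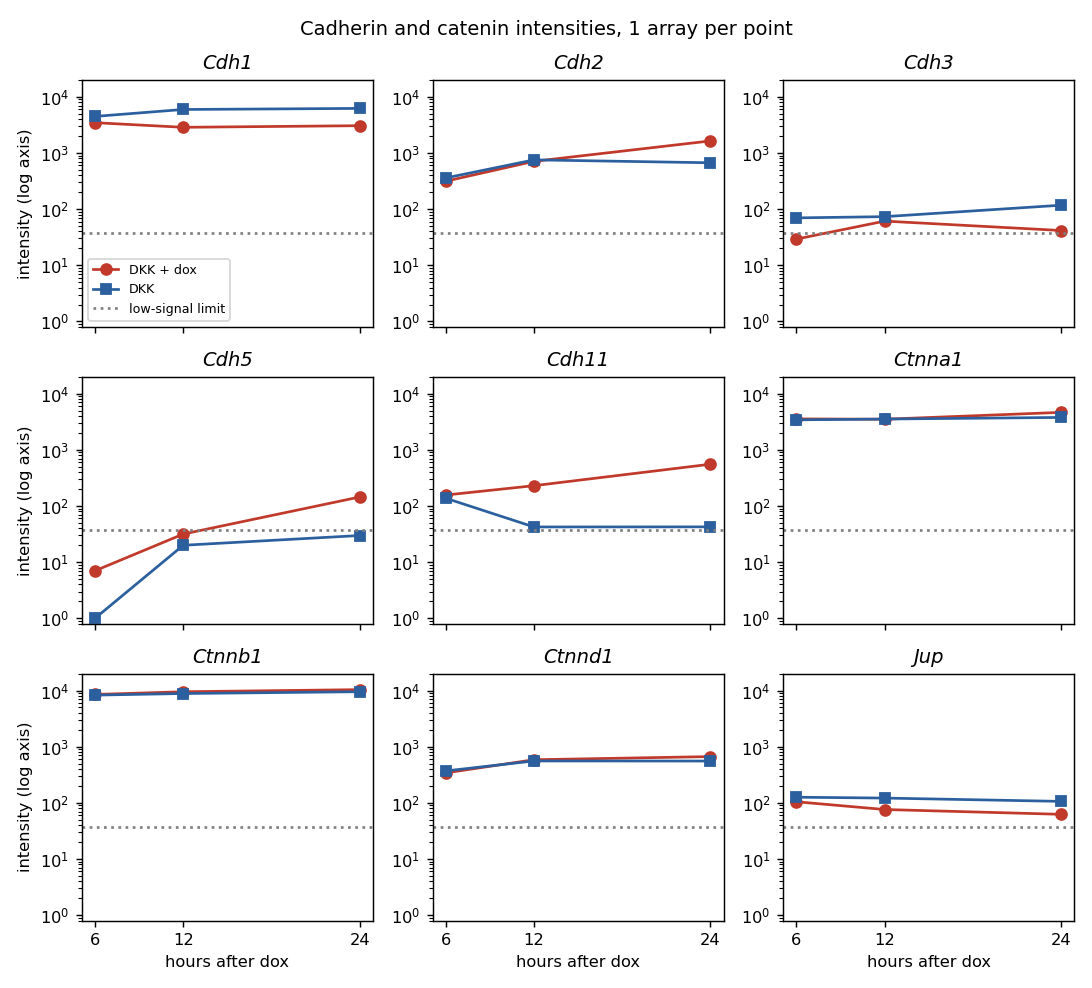
Intensity (log axis) of each member's probe set by hours after dox, with 1 array per point, DKK + dox as red circles, DKK as blue squares and the low-signal limit of 37.2 as a dotted line. Cdh1 lay lower with dox at all 3 times, Cdh11 separated from 12 hours, and the pairs for Ctnna1, Ctnnb1 and Ctnnd1 lay close together.

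Cdh1, which encodes E-cadherin of epithelia and of pluripotent cells, had intensities of 3465, 2868 and 3063 at 6, 12 and 24 hours with dox, against 4481, 5957 and 6222 in DKK. All 3 arrays with dox lay below all 3 DKK arrays, and the gap was wider at 12 and 24 hours than at 6 hours. The measured log2 differences were -0.37, -1.05 and -1.02, and at 24 hours the DKK intensity was 2.03-fold that with dox. The fitted difference was -1.25, with a 95% interval of -1.63 to -0.86 (limma, adjusted p = 0.00456). Between 6 and 24 hours Cdh1 changed by -0.18 log2 units with dox and by 0.47 in DKK. Fewer cells expressing a gene and less RNA per cell cannot be told apart in such bulk RNA. Cdh1 has 1 probe set, bright on all 6 arrays. The call was lost with a constant difference (limma, adjusted p = 0.0632) and without the intensity trend (limma, adjusted p = 0.0697). With a constant difference 0 of all genes tested rose and 0 fell.

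Cdh3 encodes P-cadherin, a classical cadherin of epithelia, and lies beside Cdh1 on chromosome 8 with no other protein-coding gene between them in the RefSeq annotation. It read 29.3, 61.2 and 41.6 with dox, against 69.8, 73.5 and 118 in DKK. Each array with dox lay below its DKK partner and also below all 3 DKK arrays, but the values with dox were near the low-signal limit. The differences of -0.86, -0.20 and -1.15 did not grow steadily with time, and the fitted difference was -1.12, with a 95% interval of -1.83 to -0.40. Its other probe set was low signal on all 6 arrays.

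Cdh2 encodes N-cadherin, the cadherin of neural and many mesenchymal cells. Intensities were 314, 710 and 1640 with dox at 6, 12 and 24 hours, against 359, 754 and 669 in DKK. At 6 and 12 hours the paired arrays lay close together, and at 24 hours the array with dox exceeded every other. The log2 differences of -0.18, -0.08 and 1.27 gave a fitted difference of 0.90 (95% interval 0.28 to 1.52), which did not pass. The other Cdh2 probe set read 202, 210 and 653 with dox and 228, 229 and 217 in DKK. It had the same difference with dox at 24 hours, but not the higher level at 12 than at 6 hours that the probe set used had in both conditions. At 24 hours the ratio of the intensity with dox to that in DKK was 2.45 for the probe set used and 3.01 for the other. The difference of Cdh2 therefore rests on the 24 hour arrays, 1 of each condition: without that pair the fitted value was -0.28. On the Cdh2 probe set used, the level at 12 hours exceeded that at 6 hours by 1.13 log2 units with dox and by 1.03 in DKK, which its other probe set did not show.

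Cdh11, the mesenchymal cadherin also called OB-cadherin, differed the most of the members. Intensities with dox were 157, 230 and 555, against 137, 42.3 and 42.5 in DKK. All 3 arrays with dox lay above all 3 DKK arrays, narrowly at 6 hours. The log2 differences were 0.17, 1.99 and 3.19, and the intensity ratio at 24 hours was 13.1. This gap had 2 parts, since the DKK level at 24 hours was -1.32 relative to 6 hours and the level with dox was 1.70 relative to 6 hours, both in log2 units. The fitted difference was 3.22, with a 95% interval of 2.54 to 3.91 (limma, adjusted p = 0.00177). Among the alternatives run, the call was lost only with a constant difference (limma, adjusted p = 0.126), under which 0 of all genes tested passed. The other Cdh11 probe set, above the low-signal limit only on the 24 hour array with dox (50.7, against 10.1 in DKK), also passed when probe sets were tested on their own (limma, adjusted p = 0.0291).

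Cdh5 encodes VE-cadherin of endothelial adherens junctions and is the protein-coding neighbor of Cdh11 on chromosome 8 in the RefSeq annotation. It read 7.02, 31.6 and 145 with dox, against 1, 20.0 and 29.8 in DKK. Only the 24 hour array with dox exceeded the low-signal limit, and the DKK value at 6 hours is the lowest that the files hold. The log2 differences were 0.35, 0.36 and 1.71. A fitted difference of 1.51 (95% interval 0.81 to 2.22) passed (limma, adjusted p = 0.0177). Without the 24 hour pair it did not (limma, adjusted p = 0.545), nor with an offset of 1 in place of 20.6 (limma, adjusted p = 0.103). The other Cdh5 probe set was low signal on all arrays, at 20.8 with dox and 31.2 in DKK at 24 hours, so the increase was seen by 1 of 2 probe sets.

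Marker lists of other cell types were also examined, and they did not all move in the same direction. Over all genes tested, 8.32% rose and 6.38% fell (limma). At an unadjusted p under 0.05 there were 4270 of 14755 genes, counting both directions (limma). Of 14 endothelial genes other than Cdh5, 10 were tested, 5 rose and 0 fell (limma; at an unadjusted p under 0.05, 8 higher and 0 lower), and the median fitted difference was 1.18. Kdr, a VEGF receptor, read 60.5, 371 and 771 with dox and 77.5, 99.3 and 89.4 in DKK, and Sox18 and Ramp2 also rose. Tek and Flt1, receptors of endothelial cells, were the other genes of the list that rose. Flt1 read 17.7, 48.6 and 101 with dox and 5.7, 23.4 and 23.2 in DKK, so it entered the test only through arrays with dox. Icam2, among those higher at an unadjusted p under 0.05 (limma), entered only through the 24 hour array with dox. On that array it read 69.0, against 15.8 in DKK. Pecam1, Tie1, Emcn and Robo4, also endothelial markers, were low signal on all 6 arrays. The summed intensity of the endothelial list was 1619 to 4021 with dox and 1531 to 1632 in DKK. Such sums add different probe sets, so the brightest genes weigh most and the sums do not measure the amount of a cell type. For parietal endoderm, 6 of 14 tested genes rose, among them Pth1r, Sox7 and Col4a2, while Fst fell. At an unadjusted p under 0.05, 7 were higher and 2 lower (limma). The 7 that did not pass were Plat, Thbd, Lama1, Gata4, Lamb1 and Gata6, with fitted differences from 0.87 to 0.05, and Lamc1 at -0.50. Without the 24 hour pair the fitted difference of Sox7 was 0.037 in place of 2.33, and that of Col4a2 was 0.48 in place of 1.40, and neither passed. The summed intensity of that list was 5276 to 7350 with dox and 4303 to 5950 in DKK. For feeder fibroblasts, 0 of 8 tested genes rose or fell (limma; at an unadjusted p under 0.05, 1 higher and 0 lower), with sums of 942 to 1243 with dox and 767 to 1173 in DKK. In the visceral endoderm list 1 of 9 tested genes, Apoe, fell and 0 rose (limma; 1 higher and 2 lower at an unadjusted p under 0.05), with sums of 1896 to 3936 with dox and 2525 to 4241 in DKK. In the list for pluripotent cells and epiblast, 4 of 10 fell, Fgf5, Utf1, Sox2 and Dnmt3b, and 0 rose (limma; 0 higher and 6 lower at an unadjusted p under 0.05), with sums of 37309 to 39599 with dox and 41523 to 44883 in DKK. With the mean of all probe sets neither Fst nor Utf1 passed (limma, adjusted p = 0.0557 and 0.0929). The part of any change in cell types in the cadherin values was not tested.

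Ctnnb1 (beta-catenin, which also carries the Wnt signal in the nucleus) read 8516, 9521 and 10383 with dox and 8286, 8850 and 9531 in DKK. Each array with dox was slightly above its DKK partner, and both conditions were higher at later times. The log2 differences of 0.04, 0.11 and 0.12 gave a fitted value of 0.14 (95% interval 0.04 to 0.24; limma, adjusted p = 0.0742). Its 2 other probe sets were also higher with dox at all 3 times, with fitted values of 0.28 and 0.27, and neither passed when tested on its own.

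Ctnna1 (alpha-catenin) read 3556, 3510 and 4651 with dox and 3422, 3535 and 3776 in DKK. The 24 hour array with dox was the highest, and at 12 hours the conditions barely differed. Its fitted difference of 0.23 (95% interval 0.06 to 0.41) did not pass (limma, adjusted p = 0.0776). The name of the Ctnna1 probe set used marks that it may also match other transcripts, and that of the next brightest does not. The next brightest probe set of Ctnna1 read 3087, 3330 and 3977 with dox and 2936, 3001 and 3178 in DKK, and its fitted difference of 0.32 did pass when probe sets were tested on their own (limma, adjusted p = 0.0186). Of the 2 dim ones, 1 had a fitted value of -0.24 without passing and the other was low signal on all arrays.

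Ctnnd1 (p120-catenin) read 342, 586 and 666 with dox and 370, 557 and 555 in DKK. The sign of its difference was negative at 6 hours, at -0.11, and positive later, at 0.07 and 0.25. Its fitted difference was 0.20, with a 95% interval of -0.10 to 0.50, and its other bright probe set gave -0.03. The name of the probe set used marks that it may also match other transcripts, and that of the other bright one does not. The change over time was larger than that with dox, since the Ctnnd1 level at 12 hours exceeded that at 6 hours by 0.74 log2 units with dox and by 0.56 in DKK.

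Jup (plakoglobin, shared by adherens junctions and desmosomes) was the catenin that lay lower with dox. It read 104, 76.1 and 62.4 with dox, against 126, 122 and 106 in DKK. All 3 arrays with dox were below all 3 DKK arrays, the 6 hour one only just. The log2 differences were -0.23, -0.56 and -0.61, and the fitted difference was -0.72 with a 95% interval of -1.20 to -0.24. Jup has 1 probe set, whose name marks that it may also match other transcripts. It passed in 4 of 15 alternatives run, among them both other normalizations.

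**Figure D2:**
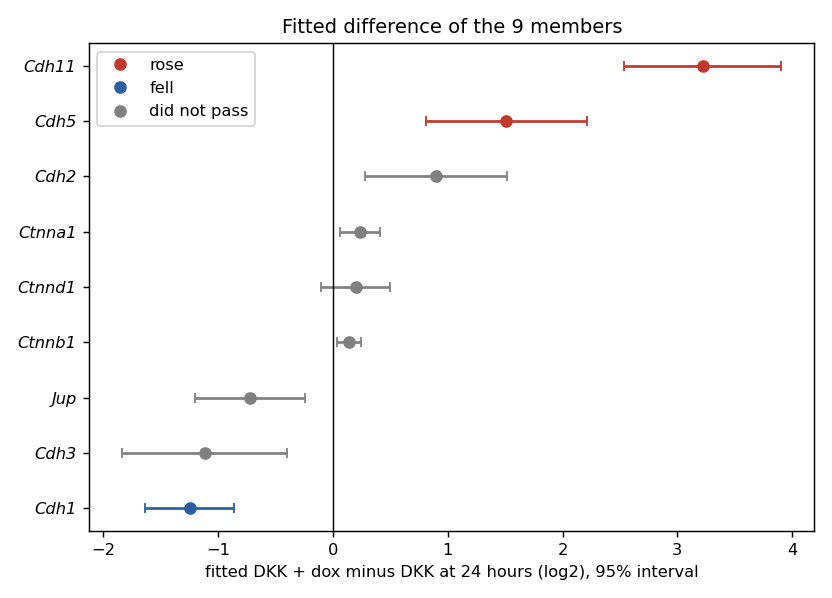
Fitted DKK + dox minus DKK difference at 24 hours (log2) of each member, with 95% intervals from limma; red rose, blue fell and gray did not pass. Cdh11 at 3.22 and Cdh1 at -1.25 lie at the ends, and the intervals of Ctnnb1, Ctnna1 and Ctnnd1 reach at most 0.50.

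For promoter sequence, RefSeq windows (GRCm38.p6, from 250 bases before to 50 after a start) were at hand for 3 members, Ctnnb1, Ctnnd1 and Jup, and not for Cdh1, Cdh2, Cdh3, Cdh5, Cdh11 or Ctnna1. None of their 5 windows holds CAGGTG on either strand, the E-box that Snail is known to bind, which 20.2% of 32851 such windows hold. The looser core CANNTG, searched after the other was found to be absent, reads the same on both strands and contains CAGGTG and CACCTG. It stands in 72.3% of windows and once among the 5, in Ctnnd1. The windows of Jup, the catenin with the lowest fitted difference, and of Ctnnd1 are shown 5′ to 3′ on the minus strand, with the CANNTG match in capitals. A match is a description of the letters, and its absence says nothing of other regions.
Jup, chr11:100397741-100398040: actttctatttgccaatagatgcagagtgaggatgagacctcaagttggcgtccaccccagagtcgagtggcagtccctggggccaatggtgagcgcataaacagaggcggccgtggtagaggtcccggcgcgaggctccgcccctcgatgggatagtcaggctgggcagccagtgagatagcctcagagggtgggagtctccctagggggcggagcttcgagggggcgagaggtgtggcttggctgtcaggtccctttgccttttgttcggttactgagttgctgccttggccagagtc
Ctnnd1, chr2:84658928-84659227: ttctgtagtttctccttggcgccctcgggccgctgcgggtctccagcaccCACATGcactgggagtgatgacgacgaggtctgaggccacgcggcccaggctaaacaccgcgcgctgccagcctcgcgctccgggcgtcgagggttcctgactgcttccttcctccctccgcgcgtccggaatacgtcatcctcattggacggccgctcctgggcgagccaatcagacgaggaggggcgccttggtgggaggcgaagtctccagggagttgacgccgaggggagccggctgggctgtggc

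By time, 0 of 9 members were at least 2-fold apart at 6 hours. Over all genes tested, 0.271% were that much higher and 0.468% that much lower with dox at that time. At 12 hours Cdh11 was at least 2-fold higher and Cdh1 lower, against 1.27% and 2.25% of all genes. At 24 hours Cdh11, Cdh5 and Cdh2 were higher and Cdh1 and Cdh3 lower, against 3.12% and 2.2%. These counts compare 2 arrays each and carry no test. The 5 members so called at 24 hours are all 5 cadherins, and 0 of the 4 catenins reached 2-fold. Of these cadherins, Cdh5 entered only through the 24 hour array with dox, and its other probe set was low signal on all arrays. Cdh3 read 41.6 on that array, near the low-signal limit of 37.2.

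**Figure D3:**
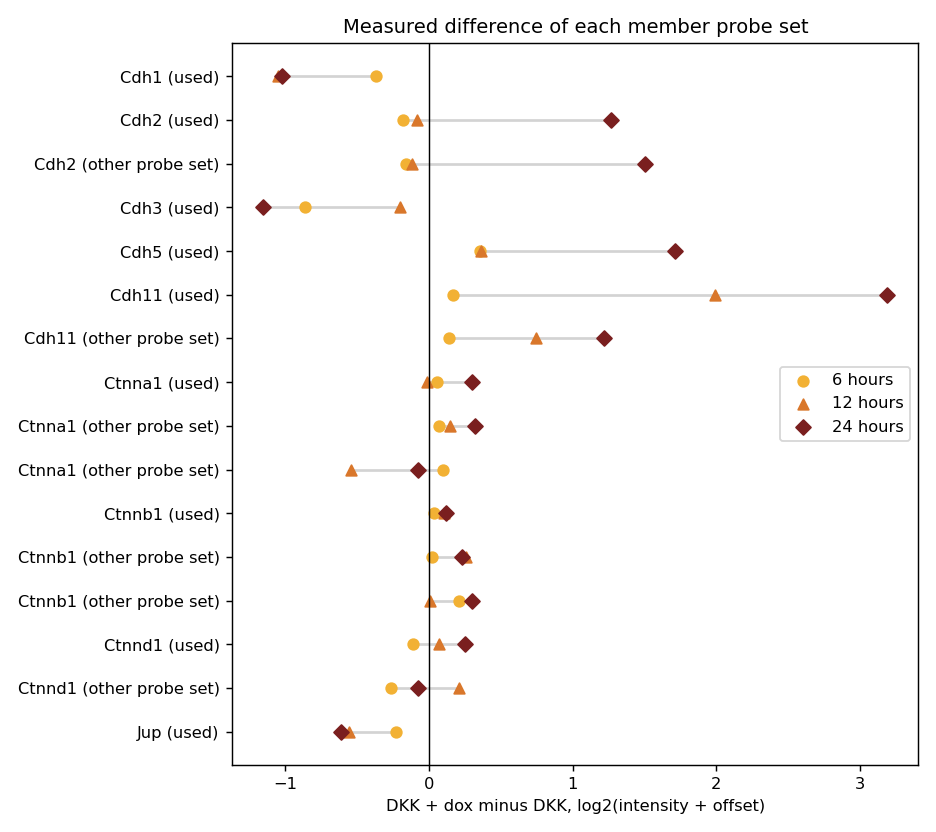
Measured DKK + dox minus DKK difference, log2(intensity + 20.6), of the 16 member probe sets above the low-signal limit on at least 1 array, at 6 hours (circles), 12 hours (triangles) and 24 hours (diamonds). The 2 Cdh2 probe sets and the 2 Cdh11 probe sets each moved alike, and the other 4 of 20 probe sets are left out as low signal.

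When every probe set was tested on its own, 6.81% of 26362 rose and 5.12% fell. Of the 20 member probe sets 16 entered that test. Those that rose were both of Cdh11, 1 of Cdh5 and 1 of Ctnna1, and those that fell were 1 of Cdh1 and 1 of Cdh3 (limma, adjusted p = 0.0468 for Cdh3). The 16 include Cdh5 and the dimmer Cdh11 probe set, each of which entered only through the 24 hour array with dox.

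Some of the members changed with time in DKK alone, where each change is a difference of 2 arrays. From 6 to 24 hours the DKK log2 change was 1.22 for Cdh5, between low-signal values, 0.86 for Cdh2, 0.61 for Cdh3, 0.56 for Ctnnd1 and 0.47 for Cdh1, against a median of -0.08 over all genes tested. Ctnnb1 and Ctnna1 changed by 0.20 and 0.14, Jup by -0.21 and Cdh11 by -1.32. Most of the change of Ctnnd1 and Cdh11 in DKK lay between 6 and 12 hours. The change of Cdh2 did so too on the probe set used, while its other probe set read 228, 229 and 217 in DKK. Large early changes in DKK were not particular to the members. Between the 6 and 12 hour DKK arrays, 949 of 14755 genes differed by a factor of 2 or more. Between the 12 and 24 hour DKK arrays, 115 did. Each count rests on 1 array per time, and the cause was not tested.

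Patterns over the 6 arrays were compared by Pearson's r among 3420 tested genes that spanned at least 1 log2 unit, as a description over points that share 2 conditions and 3 times. Most like Cdh1 were Slc27a2, Cyb561, H2-K1, Spint1 and H2-D1, with r from 0.996 to 0.999. Slc27a2 read 443, 278 and 306 with dox and 759, 1349 and 1465 in DKK. Most like Cdh11 were Emilin1, Pld1, Tgfbi, Glipr2 and Anxa5, with r from 0.988 to 0.992. Of these, Pld1 entered only through the 24 hour array with dox, at 46.5, and was low signal on the others. Tgfbi, a secreted matrix protein, read 369, 628 and 1293 with dox and 245, 68.7 and 51.3 in DKK.

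In 6 further lists of cadherin adhesion, 17 of 103 tested genes rose (16.5%) and 7 fell (6.80%), against 8.32% and 6.38% of all genes tested. The share that fell was thus near that of all genes. Of all 14755 genes tested, 4270 had an unadjusted p under 0.05 in either direction (limma). Of 8 other classical cadherins tested, Cdh10, a type II cadherin, rose, and 0 fell (limma; at an unadjusted p under 0.05, 3 higher and 0 lower). Cdh10 read 206, 386 and 544 with dox and 132, 177 and 182 in DKK, with a fitted difference of 1.63 (limma, adjusted p = 0.00246). With the mean of all its probe sets Cdh10 did not pass, at 0.63 (limma, adjusted p = 0.0626). Among 20 tested protocadherins and giant cadherins, 4 rose and 1 fell. Fat4 and Dchs1, a receptor and ligand pair of giant cadherins, had fitted differences of 2.54 and 2.23, and Fat4 read 26.4, 149 and 340 with dox, against 35.0, 33.5 and 39.8 in DKK. Dchs1 read 17.0, 70.1 and 148 with dox and 18.6, 20.6 and 12.0 in DKK, so it entered the test only through 2 arrays with dox. Neither Fat4 nor Dchs1 passed without the 24 hour pair (limma, adjusted p = 0.17 and 0.22). Pcdh18 and Fat1 also rose, and Pcdh8 fell, with a fitted difference of -0.89. With the mean of all probe sets Pcdh18 was at 0.66 and did not pass (limma, adjusted p = 0.0699).

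Of 11 other catenins and plakophilins, 2 fell and 0 rose, against 6.38% and 8.32% of all genes tested. At an unadjusted p under 0.05, 3 were lower and 0 higher, against 4270 of 14755 genes in either direction (limma). Pkp2, a desmosomal plakophilin, read 372, 301 and 306 with dox and 640, 1245 and 1162 in DKK, with a fitted difference of -2.31 (limma, adjusted p = 0.00553). Pkp4 fell, with a fitted difference of -0.41. With the mean of all probe sets Pkp4 was at -0.32 and did not pass (limma, adjusted p = 0.153). In that list the median fitted difference was -0.18.

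Among 23 nectins, afadin and actin linkers, 5 rose and 3 fell, against 8.32% and 6.38% of all genes. The focal adhesion and junction proteins Zyx and Vcl rose, with fitted differences of 0.72 and 0.46. Wtip rose, with a fitted difference of 0.52, and Actn1 and Enah also rose. With the mean of all probe sets Vcl was at 0.32 and without the 24 hour pair at 0.13, and it passed under neither. Plekha7 and Camsap3, which tie microtubules to the adherens junctions of epithelia, fell, with fitted differences of -1.83 and -1.91. Ajuba also fell, with a fitted difference of -0.41. Camsap3 read 166, 167 and 167 with dox and 318, 453 and 556 in DKK. Cdh1, Plekha7 and Camsap3 each had all arrays with dox below all DKK arrays.

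For cadherin cleavage and turnover, 4 of 22 tested genes rose and 1 fell, against 8.32% and 6.38% of all genes. Adam10, the sheddase that cleaves E-cadherin and N-cadherin, read 428, 796 and 1084 with dox and 444, 538 and 472 in DKK, with a fitted difference of 1.09 (limma, adjusted p = 0.00553). Its probe sets disagreed, and with their mean Adam10 was at 0.28 and did not pass (limma, adjusted p = 0.326). Fyn and Numb rose, with fitted differences of 0.51 each, and Rab11b also rose. The phosphatase Ptprf fell, with a fitted difference of -0.43. Numb and Ptprf did not pass with the mean of all probe sets (limma, adjusted p = 0.123 and 0.0618). Of 19 tested genes of the beta-catenin destruction complex and its nuclear partners, 3 rose and 0 fell (limma; at an unadjusted p under 0.05, 6 higher and 0 lower). These were Sox17, a factor of endoderm, at 1.67, Tcf7l2, a TCF factor that binds beta-catenin, at 0.85, and Fbxw11, a ubiquitin ligase subunit, at 0.26. The increase of Sox17 rests on the 24 hour pair, without which it was 0.47 (limma, adjusted p = 0.668), and at 6 hours it read 239 with dox and 307 in DKK. Tcf7l2 and Fbxw11 did not pass with the mean of all probe sets (limma, adjusted p = 0.0537 and 0.247).

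**Figure D4:**
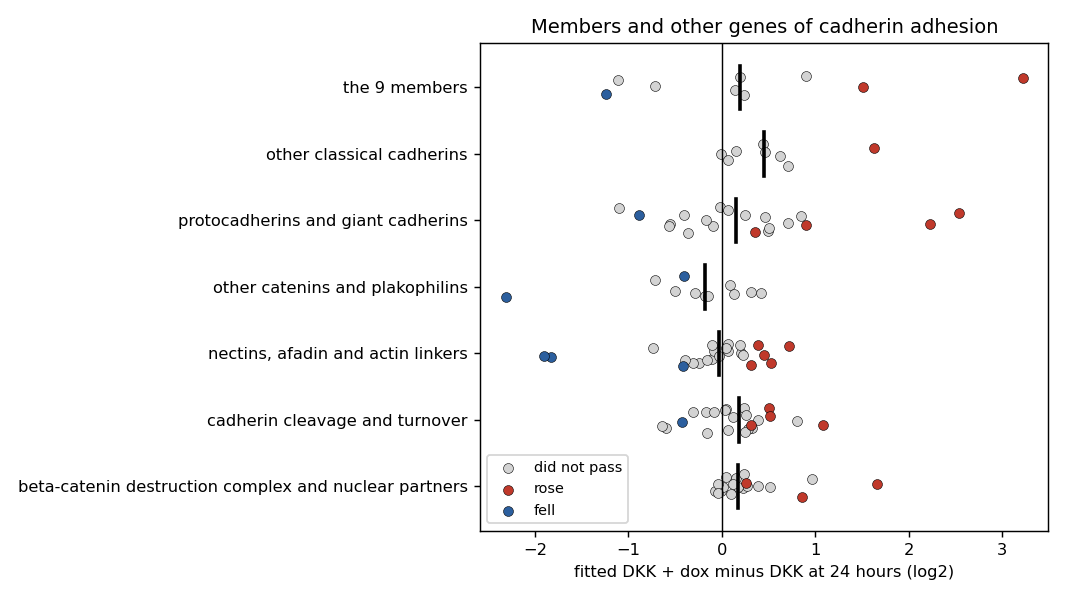
Fitted DKK + dox minus DKK difference at 24 hours (log2) of the 9 members and of the tested genes in 6 lists of cadherin adhesion, with 1 point per gene, red for rose, blue for fell, gray for did not pass, and a black bar at each median. List medians lie between -0.18 and 0.45, and each list holds genes on both sides of 0.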

How the data were processed

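RNA of 6 mouse A2.Snail cultures, DKK + dox and DKK at 3 times, was hybridised to Affymetrix mouse genome arrays. The deposited values are linear intensities that the authors normalized and modeled with dChip. The program version and model type were not given in the sources used here. Of 45037 probe sets, 34945 had 1 symbol, 932 several and 9160 none; 34741 matched RefSeq (GRCm38.p6) by Entrez ID without changing any symbol. Only probe sets with 1 symbol entered.

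limma 3.58.1 in R 4.3.3 (lmFit and eBayes, trend set, prior degrees of freedom 5.5) fitted log2(intensity + 20.6) with the time point as a block and a difference proportional to hours. P-values were adjusted by Benjamini-Hochberg over 14755 genes, with a threshold of 0.05, and the fit was tested on simulated data. The number of arrays limits the precision, as does signal, with 37.5 to 41.3% of probe sets at or under 37.2 on each array.

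All members are named, with up to 3 genes that rose and 3 that fell per list by fitted difference. Tek, Flt1, Icam2, Dnmt3b, Fat1, Actn1, Enah and Rab11b were named after their values were seen. So were the endothelial markers with low signal and the parietal endoderm genes that did not pass. The members and lists were chosen with earlier results of these data known. Alternatives in offset, filter, normalization, probe set, model and left-out times were run. Plots used matplotlib 3.10.9 (Python 3.11.15).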

Additional observations from a re-analysis of the deposited data

Results flagged for a closer look

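Cdh2, Ctnnd1 and Ctnna1 had differences of opposite sign at separate times, with all their intensities above the low-signal limit. For Cdh2 the DKK + dox minus DKK difference was -0.18 at 6 hours and -0.084 at 12 hours, and 1.27 at 24 hours. For Ctnnd1 it was -0.11 at 6 hours and 0.25 at 24 hours. For Ctnna1 it was -0.010 at 12 hours and 0.30 at 24 hours. Each value is a difference of 2 arrays, and the difference between times was not tested.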

How the results depend on the processing

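With 1 array per condition and time, a call depends on the form of the trend. As reported, 1 member fell and 2 rose. With an offset of 1, 1 rose. With the pooled median as offset, or with every probe set tested on its own, 2 fell. With genes above the limit on every array, 2 fell (Cdh1 and Jup) and 1 rose, and Cdh3 and Cdh5 do not enter. Under either of the other normalizations, quantile or median centring, 3 fell (Cdh1, Cdh3 and Jup) and 3 rose (Cdh2, Cdh5 and Cdh11). With the mean of all probe sets, 2 fell (Cdh1 and Jup) and 2 rose (Cdh11 and Ctnnb1, without Cdh5). With plain probe sets, those whose names carry no a, s or x mark of further matches, 1 fell and 3 rose, Ctnna1 among them. Ctnnb1 and Jup have no such probe set. Linear time gave 1 that rose. Leaving out the intensity trend gave 0 that fell and 1 that rose (limma; 5 members had an unadjusted p under 0.05). With a constant difference 0 fell and 0 rose (limma; 6 members, and 2927 of 14755 genes, had an unadjusted p under 0.05). Leaving out the 12 hour pair, 2 fell and 4 rose, and leaving out the 24 hour pair, 1 rose. At a 1.5-fold threshold 1 member, Cdh3, was apart at 6 hours, against 0 at 2-fold.

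Directions of the fitted differences held for all members in every alternative that gave a value, except for Cdh2 at -0.28 without the 24 hour pair and Ctnnd1 at -0.030 with plain probe sets. With plain probe sets the measured Ctnnd1 difference at 24 hours was -0.078. Cdh1 passed in 14 of 16 alternatives, Cdh11 in 15 of 16 and Cdh5 in 9 of 15. The 31 other genes named by rule reversed in 0 of the alternatives that gave them a value, and 0 of them passed with a constant difference, 7 under linear time, 5 with no intensity trend, 9 without the 24 hour pair, 20 with the mean of all probe sets, 22 without the 6 hour pair and 25 without the 12 hour pair (limma). Over all genes, 1227 rose and 941 fell as reported. With a constant difference 0 rose and 0 fell over all genes, so the lost calls there are not particular to the genes named. The counts were 121 and 80 under linear time and 209 and 76 with no intensity trend. They were 793 and 533 without the 6 hour pair and 229 and 499 without the 24 hour pair. The cause of these changes was not tested.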
